A study of Papio anubis with 767 samples.

Results

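Glucose production and glucose transport were examined through the genes named for them: PCK1, G6PC and FBP1, which encode enzymes of glucose production, the facilitative transporters SLC2A1, SLC2A2, SLC2A3 and SLC2A4, and the sodium-coupled transporters SLC5A1 and SLC5A2. Of these 9 genes, 8 have a row under their own symbol among the 29202 rows of the expression table, and SLC2A3 is not analysed here. Levels were read in 64 tissues, and 24 h profiles in the liver, kidney cortex, ileum, heart, 2 skeletal muscles and 6 fat labels.

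The animals were male olive baboons (Papio anubis, written Papio anubis hamadryas in the protocol), aged 5 to 6 years and weighing 7 to 11 kg, with no other genotype or treatment given. Light and dark lasted 12 h each, and the animals were fed fruit and pellets at 9:00 and 15:00, and were perfused with an ice-cold salt solution after death. A tissue has 12 libraries of polyA RNA, 1 per time from ZT0 to ZT22 in steps of 2 h, and the iris has 11 (ZT, zeitgeber time, counts hours from lights on). Since 1 animal gave all tissues of a time, according to the labels, animal and time of day cannot be told apart, and the 12 libraries of a tissue serve as replicates in every test.

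Glucose is made from lactate, glycerol and amino acids through a chain in which PCK1 (cytosolic phosphoenolpyruvate carboxykinase) takes the first committed step, FBP1 (fructose-bisphosphatase) removes a phosphate further along, and G6PC (glucose-6-phosphatase) frees the sugar, which liver, kidney cortex and small intestine can then release. SLC2A2 (GLUT2) carries glucose in both directions across the membranes of hepatocytes, renal tubule cells and enterocytes, SLC2A1 (GLUT1) serves barriers such as that between blood and brain, and SLC2A4 (GLUT4) is the insulin-responsive carrier of muscle and fat. SLC5A1 (SGLT1) and SLC5A2 (SGLT2) draw glucose into cells together with sodium, SGLT1 from the gut lumen and SGLT2 from the filtrate of the early proximal tubule. In fat cells PCK1 feeds the making of glycerol for triglyceride storage, not the release of glucose.

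Values are FPKM as deposited, reads scaled to the length of the gene and to the library, so levels can be compared between genes. Recovered reads per library ran from 32790 to 31.8 M (median 8.26 M, where M is 1e+06). By lists of cell type markers, 51 of 767 libraries held the markers of another tissue or lacked their own, and these include the liver libraries of ZT0, ZT6 and ZT12. By their expression pattern, 92 libraries matched another animal than the labelled one, including all 12 of the duodenum and of both colon segments, but none of the liver, kidney cortex, ileum, heart, perirenal, subcutaneous or omental fat. After each tissue's mean was taken out, the leading principal component over all libraries, called the library axis here, carried 40.2% of what varied among 6722 genes. Its mean score was positive from ZT2 to ZT12 (0.90 at ZT6) and negative from ZT14 to ZT0 (-0.93 at ZT22), so it moves with time of day and its part in the rhythms below was not tested apart from the fits that carry it as a covariate.

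PCK1 and G6PC had their highest means in the liver and kidney cortex, FBP1 in the kidney cortex and skeletal muscle, and PCK1 was also high in cornea, colon and ileum. PCK1 had a mean of 742 FPKM in the liver, with a lowest value of 75.9, a median of 318 and a highest of 3028. The kidney cortex followed at 350 FPKM (41.1 to 1067, median 230), then the cornea at 126, the descending colon at 97.7, the ascending colon at 95.9, the ileum at 83.4, the duodenum at 53.2 and the cecum at 47.3. Liver and kidney cortex overlapped over most of their ranges, and within this order only the step from kidney cortex to cornea exceeded 1 SD of the log2 values. PCK1 reached a mean of 1 FPKM in 25 tissues, and the median of the tissue means was 1.95 FPKM in the periphery and 0.0511 in the brain.

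G6PC was far narrower in its spread over the body. Its mean was 311 FPKM in the liver (7.57 to 888, median 194), 105 in the kidney cortex (16.4 to 268, median 95.8), 15.9 in the ileum, 7.99 in the duodenum and 3.16 in the kidney medulla. These 5 tissues and the supraoptic nucleus, at 1.33, were the 6 that reached 1 FPKM, and 630 of the 767 libraries held no read. The step from kidney cortex to ileum exceeded the spread, while that from liver to kidney cortex did not.

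FBP1 had its highest mean in the kidney cortex, at 372 FPKM (130 to 1784, median 223), and the 1784 FPKM belong to the library of ZT2. Skeletal muscle markers summed to 140 FPKM in that library and to 0.371 to 14.04 in the other 11, and their part in its FBP1 value was not tested. Without ZT2 the kidney cortex had a mean of 243 FPKM and abdominal muscle, then at 261, stood highest. Over all times, abdominal muscle had 257 FPKM, gastrocnemius muscle 201, liver 179, ileum 117 and duodenum 107. Each step from one of these to the next lay within the spread, and only the step down to the ascending colon, at 23.7, exceeded it. Tissues further apart in this order were not compared by this rule. The muscle value is uncertain: FBP2, the muscle enzyme and a close relative of FBP1, is not analysed here, and whether its reads were counted under FBP1 was not tested. FBP1 reached 1 FPKM in 61 tissues.

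Of the transporters, SLC2A2 stood highest in the liver and SLC5A2 in the kidney cortex, each beyond the next tissue. SLC2A2 had 572 FPKM in the liver (15.9 to 1116, median 626), 21.0 in the ileum, 16.7 in the kidney cortex, 15.1 in the duodenum and 3.57 in the pancreas, the only 5 tissues at 1 FPKM or more. The 2 lowest liver values, 45.0 at ZT0 and 15.9 at ZT6, are those of libraries with brain markers. The log2 difference between liver and ileum was 4.55, with an adjusted p of 0.00016 over the 8 genes (2-sided permutation test, smallest possible raw p 2e-05). Here and below, the p of this test does not account for picking the 2 tissues by the same values.

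SLC5A2 was at or above 1 FPKM in the kidney cortex alone, with a mean of 34.7 FPKM, a lowest value of 1.72, a median of 8.84 and a highest of 258. That mean rests on 2 libraries, 80.4 FPKM at ZT0 and 258 at ZT2, while the other 10 held 1.72 to 20.3. Proximal tubule markers (5 of 6 measured) moved the same way, with summed levels of 1820 and 5637 FPKM in those 2 libraries and 341 to 1091 in the others, and their part in the SLC5A2 value was not tested. Without the kidney cortex library of ZT2, which also held skeletal muscle markers, the mean was 14.4 FPKM. The next label, the iris, had 0.907 FPKM, a log2 difference of 3.74 (adjusted p = 0.00016 over the 8 genes, permutation test). The iris mean rests on its library of ZT8 at 7.91 FPKM, while the others held 0 to 1.02. Without the libraries holding foreign markers the next label was the arcuate nucleus, at 0.585 FPKM (log2 difference 3.00).

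SLC5A1 was the transporter of the small intestine. It had 143 FPKM in the ileum (41.5 to 315, median 124) and 138 in the duodenum (37.7 to 302, median 124), which overlapped almost wholly. The prostate followed at 35.3 FPKM (10.9 to 72.9), the cecum at 16.5, the skin at 12.5, the descending colon at 11.4, the pancreas at 10.4 and the kidney cortex at 9.25. The steps from duodenum to prostate and from prostate to cecum exceeded the spread, and 13 tissues reached 1 FPKM.

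SLC2A1 was found in all 64 tissues at 1 FPKM or more and in 49 at 5 or more. The retinal pigment epithelium had 366 FPKM (188 to 532, median 366), the cornea 294 (159 to 456, median 248), the medial globus pallidus 93.3, the bone marrow 75.6 and the lateral globus pallidus 74.5. The median of the tissue means was 32.6 FPKM over the brain regions, 5.90 over the peripheral tissues and 38.0 over the eye and gland tissues. The iris had the highest mean, 2099 FPKM, but a median of 369, since the libraries of ZT6 and ZT8 held 8191 and 11364 FPKM and the other 9 held 123 to 878. All FPKM of a library sum to 7.86 M and 10.7 M in those 2 and to 0.42 M to 1.15 M in the others, and with each library rescaled to the same sum the iris (691) fell below the retinal pigment epithelium (840).

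SLC2A4 was highest in skeletal muscle. Gastrocnemius muscle had 164 FPKM (35.5 to 257, median 178) and abdominal muscle 150 (64.4 to 272, median 134), which did not differ beyond their spread. Subcutaneous fat had 71.9 FPKM, mesenteric fat 61.9, stomach fundus 56.4, heart 56.2 (7.77 to 114, median 49.0) and omental fat 45.9. The libraries labelled adrenal cortex had 69.9 FPKM, but the steroid-producing markers expected there (5 of 6 measured) summed to a median of 0.811 FPKM (0.365 to 33.5). Smooth muscle markers had 3207 FPKM there, a median over the markers and not a sum. The mean of the iris, 69.1 FPKM, rests on its library of ZT8 at 481, against a median of 10.04. In the other 6 genes the highest tissue did not stand above the next by the permutation test (adjusted p from 0.395 to 0.797), although that for G6PC passed without the libraries holding foreign markers (log2 difference 1.79, adjusted p = 0.00843). That for FBP1, kidney cortex over abdominal muscle, passed with rescaled libraries (0.75, adjusted p = 0.0343).

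**Figure D1:**
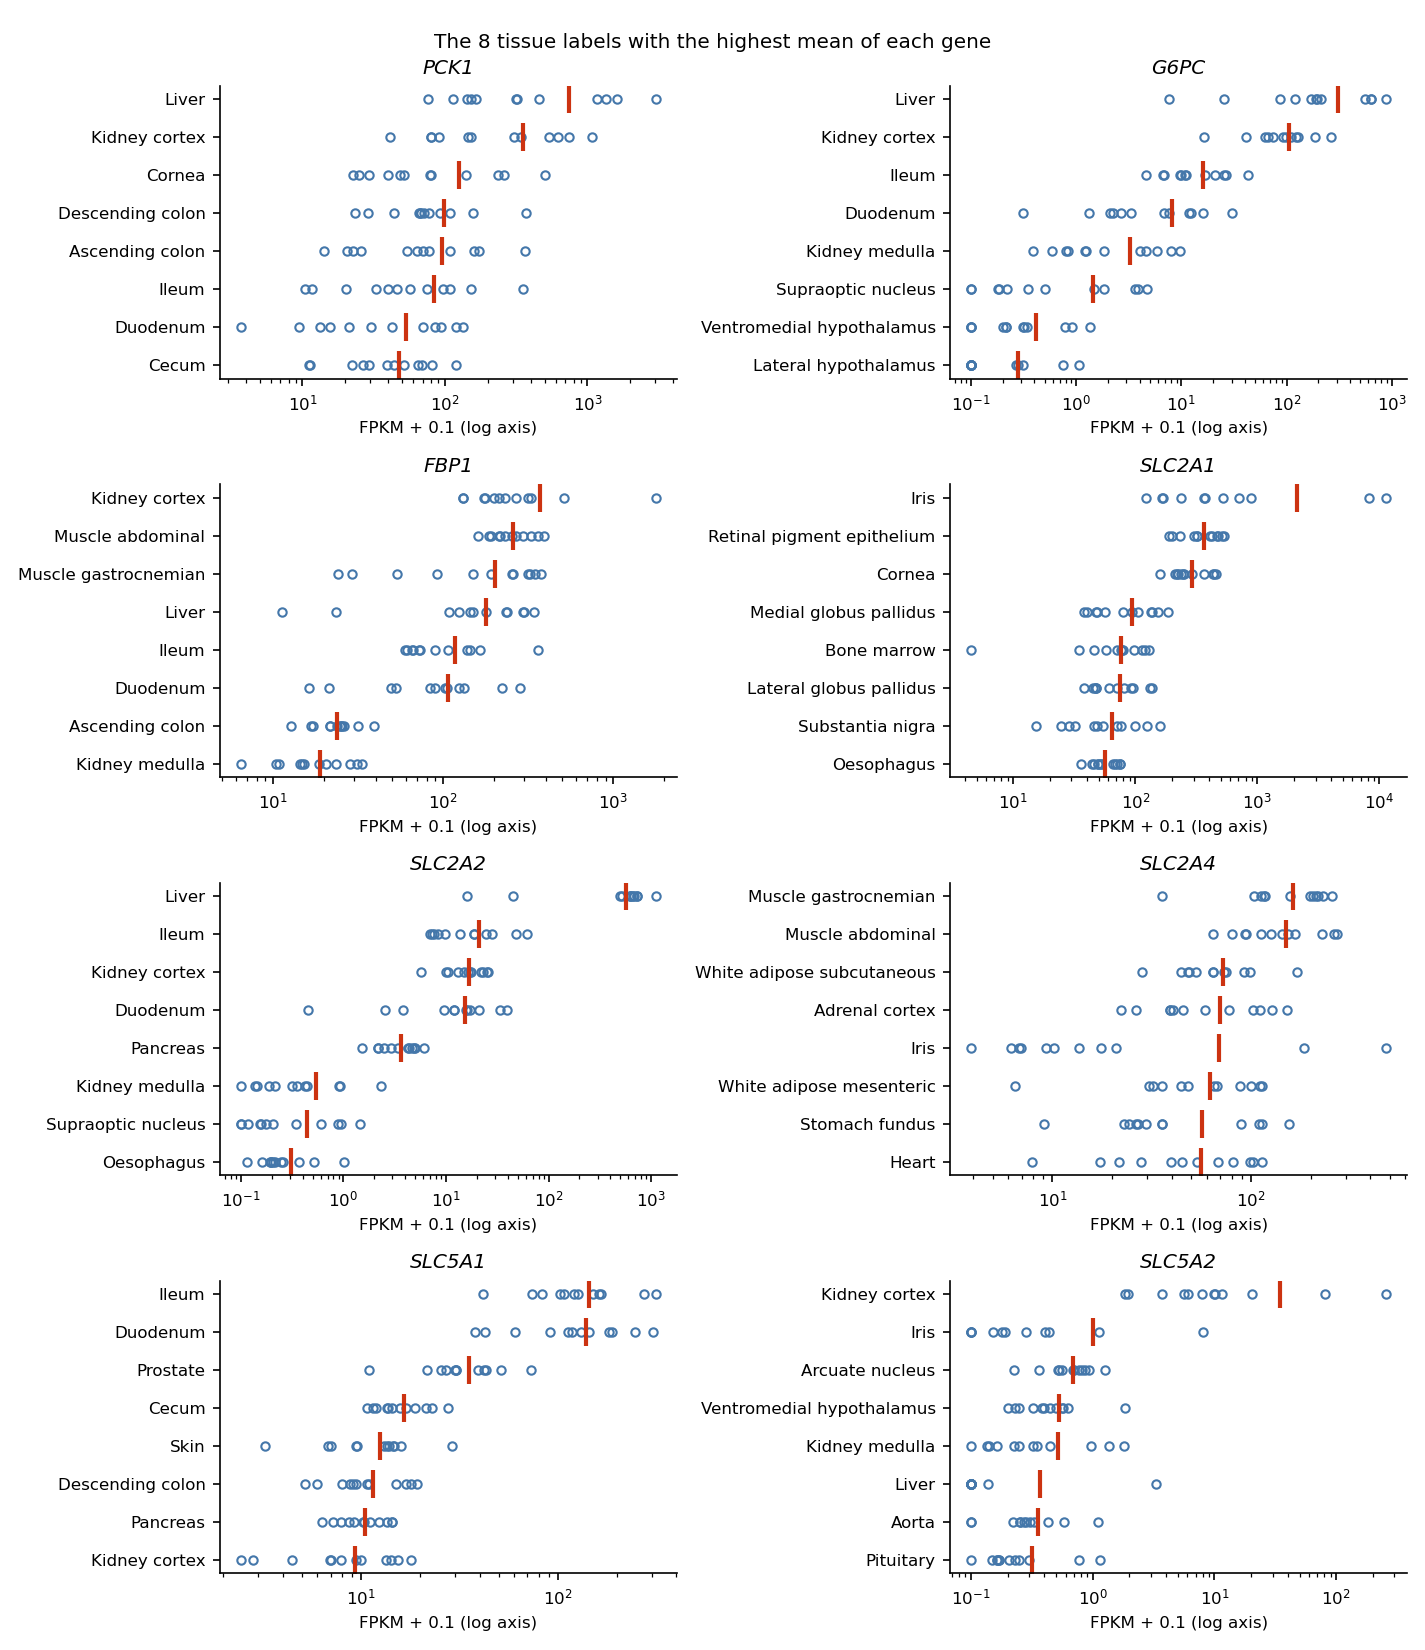
Each panel shows 1 gene in the 8 tissue labels with its highest means; the x axis is FPKM plus 0.1 on a log scale, points are single libraries and the bar marks the mean. SLC2A2 in the liver and SLC5A2 in the kidney cortex lie apart from the next label, while PCK1, G6PC and FBP1 spread over ranges that overlap between liver and kidney cortex.

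The pattern over 64 tissues was compared with that of all other genes by Pearson's r of log2 tissue means, as a description, since the tissues share animals and libraries. SLC2A2 was most like SMLR1 (r = 0.97), UGT2B45 (0.97) and APOC3 (0.96), and G6PC most like PLA2G12B (0.95), NAT8 (0.94) and SMLR1 (0.94); G6PC and SLC2A2 had an r of 0.94 with each other. SLC5A2 was nearest to FAM151A (0.96) and SLC4A9 (0.96), and SLC5A1 to VIL1 (0.88), HNF4G (0.86) and GRXCR2 (0.86). SLC2A4 was nearest to PLIN4 (0.88), a coat protein of fat droplets, HTRA3 (0.87) and TNS1 (0.84). PCK1 was nearest to AOC1 (0.84), its mitochondrial counterpart PCK2 (0.80) and AGMO (0.79), FBP1 to AGMAT (0.78), the glucose-6-phosphate carrier SLC37A4 (0.74) and UGT3A1 (0.68), and SLC2A1 to COL8A2, MINK1 (both 0.78) and SLC48A1 (0.77).

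Liver and kidney cortex, the main glucose-releasing organs, were compared in level over all times. SLC2A2 was 24.5-fold higher in the liver, while the sodium-coupled carriers were higher in the kidney cortex. Of the 8 genes 4 passed the test, where 41.6% of all genes tested did (limma on log2(FPKM + 0.5), Benjamini-Hochberg adjusted p under 0.05 over all genes). SLC2A2 differed by 4.62 on the log2 scale (SE 0.53, adjusted p = 5.2e-08), and by 5.38 without the liver libraries of ZT0 and ZT6, which held brain markers (adjusted p = 1.5e-16). SLC5A1, at 0.0448 to 2.07 FPKM in the liver and 2.35 to 17.9 in the kidney cortex, differed by -2.85 (SE 0.32, adjusted p = 3.7e-08), and these groups did not overlap, as in 6.69% of genes. SLC5A2 differed by -4.24 (SE 0.58, adjusted p = 1.3e-06) and SLC2A4 by -0.97 (SE 0.25, adjusted p = 0.00306).

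No difference of a production enzyme between the organs passed the test at this spread. PCK1 differed by 0.79 (SE 0.62, adjusted p = 0.311), G6PC by 0.98 (SE 0.61, adjusted p = 0.205), FBP1 by -1.03 (SE 0.49, adjusted p = 0.0967) and SLC2A1 by 0.22 (SE 0.41, adjusted p = 0.684). G6PC passed without the libraries holding foreign markers (1.79, adjusted p = 0.00254) and also without ZT6 alone (1.39, adjusted p = 0.0339), and FBP1 passed with rescaled libraries (-1.75, adjusted p = 0.00097). With rescaled libraries the differences of PCK1 and G6PC shrank to 0.08 (means of 624 and 535) and 0.26 (254 and 165). All FPKM of a library summed to 0.57 M to 1.96 M in the liver and 0.53 M to 1.36 M in the kidney cortex, and their part in these differences was not tested.

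Over all genes tested 24.3% were higher in the liver and 17.2% in the kidney cortex. Among the partner genes of glucose production, 7 of 13 tested differed, 6 of them higher in the liver, with a median difference of 0.14 beside 0.11 over all genes. They include GYS2, the liver glycogen synthase (155 against 0.0143 FPKM), PYGL, which breaks glycogen down (289 against 15.7 FPKM), and PFKFB1, which sets fructose-2,6-bisphosphate (43.6 against 0.636 FPKM). Of the other glucose and fructose transporters 6 of 8 differed, 4 of them higher in the kidney cortex, among them the fructose carrier SLC2A5 (123 against 2.10 FPKM), the sugar carrier SLC5A10 (21.6 against 0.231 FPKM) and SLC2A11 (3.27 against 0.496 FPKM), while SLC2A10 was higher in the liver (2.49 against 0.210 FPKM). Of the genes of GLUT4 traffic and glucose trapping 4 of 12 differed, 2 in each direction, among them TBC1D1, a brake on GLUT4 vesicles (4.38 FPKM in the liver, 24.6 in the kidney cortex).

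Within the kidney, glucose production and reabsorption genes were higher in the cortex and SLC2A1 in the medulla. Of the 8 genes 7 differed, where 45.1% of all genes tested did. G6PC was 33.8-fold higher in the cortex (log2 5.08, SE 0.45, adjusted p = 1.2e-09), SLC2A2 19.4-fold, FBP1 15.2-fold, SLC5A2 13.8-fold, PCK1 12.8-fold (adjusted p = 2.4e-06) and SLC5A1 6.29-fold on the log2(FPKM + 0.5) scale. Cortex and medulla did not overlap for G6PC (16.4 to 268 against 0.287 to 9.62 FPKM), SLC2A2 (5.65 to 25.4 against 0 to 2.20), FBP1 (130 to 1784 against 6.35 to 33.2) and SLC5A2 (1.72 to 258 against 0 to 1.71), where 5.19% of genes did not.

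SLC2A1 ran the other way. It held 0.986 to 10.47 FPKM in the cortex and 4.24 to 35.5 in the medulla, a log2 difference of -2.40 (SE 0.34, adjusted p = 3.3e-06), and SLC2A4 showed no difference that passed (-0.54, adjusted p = 0.165). The medulla libraries of ZT0, ZT6 and ZT8 had 23.4, 35.5 and 32.9 FPKM of SLC2A1, within the 4.24 to 34.1 of the other 9 apart from ZT6. They held brain markers: neuron markers summed to 523 to 1108 FPKM against 2.06 to 15.3 in the other 9, astrocyte markers to 1809 to 2077 against 7.18 to 223, and oligodendrocyte markers to 198 to 1083 against 3.55 to 31.4. Markers of the thick ascending limb and collecting duct summed to 1066 to 1953 FPKM there and to 4140 to 9037 in the other 9. Without the libraries holding foreign markers SLC2A1 differed by -2.16 (adjusted p = 6.9e-05), the 6 genes higher in the cortex still passed with log2 differences of 2.35 to 4.75, and SLC2A4 passed too (-0.82, adjusted p = 0.0477).

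Partner genes followed the enzymes in 6 of the 8 that differed of 11 tested, with a median of 1.45 beside -0.36 over all genes. Over all genes tested 15.2% were higher in the cortex and 29.9% in the medulla. PCK2 had 221 FPKM in the cortex and 6.26 in the medulla, SLC37A4 70.6 and 13.3, and PKLR, a pyruvate kinase, 1.61 and 0.151. Of the other transporters 5 of 7 differed, 3 higher in the cortex, SLC2A5 (123 against 5.50 FPKM) and SLC5A9 (1.97 against 0.135 FPKM) among them, and 2 lower, SLC2A12 (1.32 against 7.77 FPKM) and SLC2A13 (0.662 against 2.71 FPKM). HK1, a hexokinase, was higher in the medulla (43.7 against 6.34 FPKM), 1 of 5 differences among 10 genes of GLUT4 traffic and glucose trapping.

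No member differed between duodenum and ileum by limma, of 7 tested, where 13.4% of all genes did. At an unadjusted p under 0.05 only G6PC differed (7.99 against 15.9 FPKM, log2 -1.37, SE 0.49, adjusted p = 0.0644), and it passed without ZT6 or without ZT12 (adjusted p down to 0.0364). SLC5A1 differed by -0.11 (SE 0.34, adjusted p = 0.864). SLC2A5 was the 1 other transporter of 4 that differed, lower in the duodenum (42.3 against 90.2 FPKM, adjusted p = 0.0205), and no partner gene of 9 did.

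Heart and gastrocnemius muscle both use SLC2A4, and muscle held more of it. SLC2A4 was 3.33-fold lower in the heart (log2 -1.73, SE 0.38, adjusted p = 0.00032), with overlap between 35.5 and 114 FPKM. FBP1 was 76.7-fold lower in the heart (0.4998 to 2.99 against 24.0 to 376 FPKM, log2 -6.26, adjusted p = 1e-12), with the limit on its muscle reads given above, and SLC2A1 did not pass (0.64, adjusted p = 0.143). With the labelled animal as a block the SLC2A1 difference passed (0.64, adjusted p = 0.0443). So 2 of 3 differed, where 67.7% of all genes did (37.5% lower and 30.2% higher in the heart). Of the GLUT4 traffic and trapping genes 8 of 12 differed, 6 of them lower in the heart, with a median of -0.57 beside -0.15 over all genes, among them RAB10, which moves GLUT4 vesicles (73.1 against 236 FPKM), LNPEP, a cargo of the same vesicles (13.2 against 36.2 FPKM), IRS1, a relay of the insulin receptor (1.496 against 18.8 FPKM), and TBC1D4 (19.1 against 38.7 FPKM).

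White fat (mean of 5 labels per time) and muscle (mean of 2) differed in all 4 genes tested, where 82.3% of all genes did, so this count is near the background. PCK1 had a mean of 25.7 FPKM in white fat and 0.187 in muscle, 17.7-fold on the log2(FPKM + 0.5) scale (log2 4.15, SE 0.30, adjusted p = 1.3e-12). SLC2A4 had 46.0 and 157 FPKM (log2 -2.32, SE 0.25, adjusted p = 3.6e-09), FBP1 8.24 and 229 FPKM (-4.85), and SLC2A1 4.39 and 2.39 FPKM (0.61, adjusted p = 0.00393). PCK2 was higher in fat as well (54.6 against 0.776 FPKM), as was PYGL (33.6 against 2.23), while SLC37A4 was lower (6.32 against 62.6). They are among 10 of 11 partner genes that differed, 5 in each direction, where 46.2% of all genes were higher in fat and 36.1% lower. Not all of these fat libraries held mainly fat by their markers: 8 of 12 pericardial libraries were low in adipocyte and high in leukocyte markers (values below), and skeletal muscle markers in subcutaneous fat summed to 38493 FPKM at ZT4 and to 17.4 to 10686 (median 569) at the other times. Their part in the fat means was not tested.

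Between the mean of 22 brain regions and that of 35 peripheral tissues 7 of 8 genes differed, where 87.7% of all genes did. SLC2A1 was the member higher in the brain, with 20.7 to 59.3 FPKM (median 27.2) against 9.75 to 18.03 (median 13.5) and a log2 difference of 1.90 (SE 0.17, adjusted p = 7.9e-11). The groups did not overlap, as in 57.3% of genes. PCK1 (-2.24), SLC2A4 (-2.86), SLC5A1 (-1.74), FBP1 (-0.77), SLC2A2 (-0.77) and G6PC (-0.67) were lower in the brain, and SLC5A2 did not pass (0.05, adjusted p = 0.154). The median of the tissue means was 0.00713 FPKM in the periphery and 0.00928 in the brain for SLC2A2, and 0.00801 and 0 for G6PC. For PCK1, SLC2A4, SLC5A1 and FBP1 that median was higher in the periphery. Here and for fat against muscle, tissues were averaged per time, so p measures the spread among times and not among tissues. All 8 other transporters tested differed, 7 of them higher in the brain, with SLC2A12 at 4.43 against 2.24 FPKM, SLC2A6 at 3.65 against 0.311, SLC5A4 at 2.04 against 1.08 and SLC2A8 at 7.26 against 2.26. Over all genes tested 39.3% were higher and 48.4% lower in the brain, and 8 of 8 is near the 87.7% that differed. TXNIP, which holds back glucose uptake, had 49.5 FPKM in the brain and 662 in the periphery.

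Over the day, PCK1 and G6PC were higher at 4 light times than at the 6 dark times in the liver, the other 2 light libraries being those with brain markers (these 4 lay above all dark ones in 3.32% of genes), and SLC2A2 overlapped between light and dark there. In the liver PCK1 was 1166 FPKM at ZT2, 3028 at ZT4, 1348 at ZT8 and 1618 at ZT10, against 114 to 458 at the 6 dark times from ZT12 to ZT22. The libraries of ZT0 and ZT6 held only 142 and 75.9 FPKM. G6PC was 556 to 888 FPKM at the same 4 light times, 86.2 to 212 in the dark, and 25.4 and 7.57 at ZT0 and ZT6. FBP1 was 237 to 341 FPKM, 108 to 234, and 23.4 and 11.2, and SLC2A2 was 502 to 735 FPKM, 521 to 1116, and 45.0 and 15.9.

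The libraries of ZT0 and ZT6 carried brain markers. Their neuron markers (6 of 6 measured) summed to 714 and 843 FPKM against 1.03 to 3.65 in the other 10, astrocyte markers to 2690 and 2728 against 9.36 to 51.6, and oligodendrocyte markers (5 of 6) to 229 and 282 against 1.14 to 9.71. Neuronal RBFOX3, astrocytic AQP4 and oligodendrocytic MOG and MOBP were at 0 in the other 10. Hepatocyte markers summed to 13858 and 35207 FPKM in these 2 libraries and to 195788 to 519444 in the others; in bulk samples, fewer cells of a type and less RNA per cell cannot be told apart. SLC2A1 was higher in the former, at 22.7 and 23.9 FPKM against 1.22 to 8.60. The library of ZT12 held proximal tubule markers, at 190 FPKM against 5.58 to 14.4.

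A 24 h cosine fitted to all 12 liver libraries called 0 of 5 members by limma, where 0.0502% of all genes were called, and 1 at an unadjusted p under 0.05, SLC2A1 (adjusted p = 0.235). PCK1 had an amplitude of 1.03 on the log2 scale (SE 0.62, adjusted p = 0.551), G6PC of 0.64 (SE 0.77, adjusted p = 0.832), FBP1 of 0.67 (adjusted p = 0.693) and SLC2A2 of 1.20 (adjusted p = 0.5002). Without the 3 libraries holding foreign markers, 2 of 5 were called, where 0.605% of all genes were. PCK1 then had an amplitude of 1.87 (SE 0.22) with a fitted peak at ZT5.7, 13.3-fold above the trough (adjusted p = 0.0232), and G6PC of 1.499 (SE 0.16), a peak at ZT6.1 and a fold of 7.99 (adjusted p = 0.0176). FBP1 had 0.69 (SE 0.15, 2.59-fold, adjusted p = 0.113) and SLC2A2 0.14 (SE 0.16, 1.21-fold, adjusted p = 0.791). With the library of ZT12 kept, G6PC was called (1.49, adjusted p = 0.0194) and PCK1 was not (1.91, adjusted p = 0.0726), where 0.488% of genes were called.

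To keep all 12 liver libraries, each enzyme was also set against SLC2A2 within its own library, a choice made after the values were seen. The ratio of PCK1 to SLC2A2 was 1.59 to 6.03 (median 2.86) at the 6 light times and 0.173 to 0.744 (median 0.302) at the 6 dark times. That of G6PC was 0.476 to 1.77 (median 0.848) and 0.107 to 0.369 (median 0.264), and that of FBP1 0.322 to 0.705 (median 0.529) and 0.159 to 0.320 (median 0.228). In none of the 3 did light and dark overlap, where the ratio to SLC2A2 lay wholly higher by day in 1.71% of all genes tested. At ZT0 and ZT6 the ratio was 3.16 and 4.77 for PCK1 and 0.519 and 0.705 for FBP1, not below the other light times. For G6PC it was 0.565 and 0.476, below the other light times (0.756 to 1.77) and above the highest dark value, 0.369. These 2 libraries held brain markers, and their FBP1 was 23.4 and 11.2 FPKM. The mean over the brain regions was 5.73 FPKM for FBP1, 0.786 for PCK1, 0.0918 for G6PC and 0.0301 for SLC2A2. The part of brain RNA in these ratios, that of FBP1 above all, was not tested.

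A cosine fitted to these ratios, given as a description with no test, had an amplitude of 2.19 on the log2 scale for PCK1, with a peak at ZT4.5 and a fold of 20.8. G6PC had 1.36 (peak at ZT5.6, 6.61-fold) and FBP1 0.81 (peak at ZT5.9, 3.07-fold). The ratio moves if SLC2A2 moves, and SLC2A2 itself ran from 502 to 1116 FPKM in the 10 libraries without brain markers.

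**Figure D2:**
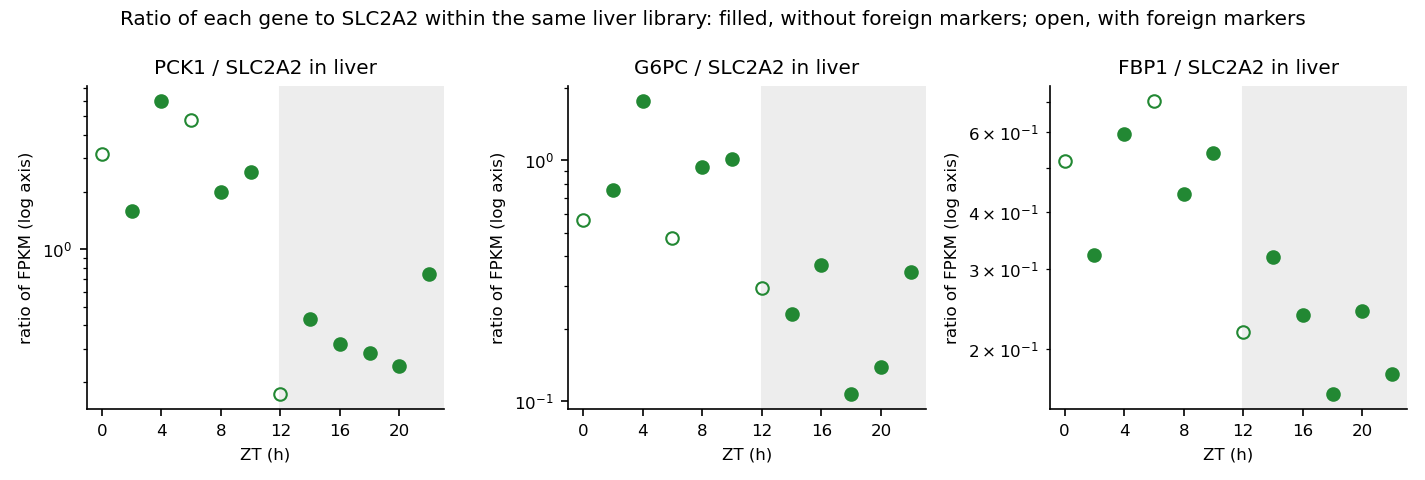
The ratio of PCK1, G6PC and FBP1 to SLC2A2 within each of 12 liver libraries, on a log axis against ZT in hours; shading marks the dark phase and open points mark libraries with foreign markers. For PCK1 the 6 light libraries lie between 1.59 and 6.03, all above the 6 dark ones at 0.173 to 0.744.

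In the kidney cortex PCK1 and G6PC were again high by day, and SLC2A2 was high by night. PCK1 ran from 41.1 FPKM at ZT20 to 1067 at ZT10, with 535 to 1067 from ZT4 to ZT10, 341 at ZT0 and 41.1 to 307 at the dark times; ZT2, at 80.3, lay among the dark values. G6PC ran from 16.4 FPKM at ZT20 to 268 at ZT10, with overlap between light (66.6 to 268) and dark (16.4 to 110). SLC2A2 was 5.65 to 17.5 FPKM in the light and 16.4 to 25.4 in the dark, overlapping only through ZT10.

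Of 8 members 3 were called, where 14.5% of all genes were. PCK1 had an amplitude of 1.70 (SE 0.34, peak at ZT7.5, 10.5-fold), G6PC of 1.14 (SE 0.26, ZT8.4, 4.86-fold) and SLC2A2 of 0.73 (SE 0.18, ZT18.1, 2.75-fold), each with an adjusted p of 0.0468, close to the threshold. Left-out times changed these calls: PCK1 and G6PC stayed called in 2 of 12 such fits, without ZT2 and without ZT22, and SLC2A2 in 1, without ZT2 (adjusted p from 0.0265 to 0.115 for PCK1, whose amplitude stayed between 1.54 and 1.91). With the library axis as a covariate the amplitudes were 1.86, 0.99 and 0.73, while no gene of the kidney cortex was called (adjusted p = 0.433, 0.368 and 0.667). Proximal tubule markers summed to 706 to 5637 FPKM in the light and 341 to 870 in the dark, and their part in these profiles was not tested.

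SLC5A2 had an amplitude of 1.89 with a peak at ZT3.5 (adjusted p = 0.0599), which rests on the ZT0 and ZT2 libraries described above and was 1.34 without ZT2 (adjusted p = 0.0919). FBP1 (0.66, adjusted p = 0.312), SLC5A1 (0.34, adjusted p = 0.684), SLC2A1 and SLC2A4 were not called. Of the partner genes 3 of 10 were called, all peaking by day: G6PC3, the phosphatase found outside the liver as well (2.15, ZT4.3), PC, pyruvate carboxylase (1.91, ZT4.5), and GPT, alanine aminotransferase (2.12, ZT3.8). Of the other transporters 2 of 6 were, SLC5A10 (2.10, ZT4.7) and SLC5A9 (1.00, ZT4.7). The rhythm of the liver minus kidney cortex difference was called for 0 of 5 members, where 0% of all genes were, and at an unadjusted p under 0.05 for none by limma. Without the libraries holding foreign markers PCK1 (p = 0.0126) and G6PC (p = 0.0086) had unadjusted p under 0.05 (adjusted p = 0.642 for both, limma).

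In the ileum PCK1 ran from 10.4 FPKM at ZT20 to 351 at ZT10. The 6 light values, 56.4 to 351, lay above the 6 dark values, 10.4 to 46.0, as in 9.93% of genes. G6PC was 16.8 to 42.6 FPKM from ZT8 to ZT16 and 4.50 to 10.9 at the other times. SLC2A4, low in this tissue, fell from 13.1 FPKM at ZT6 to 0.0734 at ZT20.

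These 3 of 7 members were called, where 27.5% of all genes were: PCK1 with an amplitude of 1.68 (SE 0.32, peak at ZT6.3, 10.3-fold, adjusted p = 0.0154), G6PC with 0.93 (SE 0.26, ZT11.8, 3.64-fold, adjusted p = 0.0435) and SLC2A4 with 1.604 (SE 0.25, ZT6.9, 9.24-fold, adjusted p = 0.0138). PCK1 and SLC2A4 were called in 11 of 12 fits that left out a time and not without ZT18 (adjusted p = 0.0577 and 0.0559), and G6PC in 4 of 12 (adjusted p up to 0.109). The ileum libraries of ZT0 and ZT4 held neuron markers (817 and 874 FPKM against 3.51 to 42.6), and that of ZT6 smooth muscle markers at 7054 FPKM against 9.96 to 1126. That ZT6 library also had the highest SLC2A4 (13.1 FPKM, next 4.44 at ZT8), and the part of smooth muscle in this profile was not tested. Pearson's r with the library axis was 0.857 for SLC2A4, 0.817 for PCK1 and 0.271 for G6PC. Fits without libraries holding foreign markers left out ZT0 and ZT4 and kept ZT6. Without the libraries holding foreign markers PCK1 had an amplitude of 1.84 (12.9-fold, adjusted p = 0.00502) and SLC2A1 was called too (0.67, adjusted p = 0.035), with 46.6% of all genes called.

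The absorptive carriers of the ileum were not called. SLC5A1 (41.5 to 315 FPKM) had an amplitude of 0.48 (SE 0.29, adjusted p = 0.356), and SLC2A2 (6.95 to 61.2 FPKM, highest at ZT20 and ZT22) of 0.88 with a fitted peak at ZT19.8 (SE 0.33, adjusted p = 0.118). FBP1 had 0.43 (adjusted p = 0.427) and SLC2A1 1.28 (adjusted p = 0.0979). PCK2 was called with a peak near that of PCK1 (1.51, ZT7.4), as were PC (1.52, ZT5.9), G6PC3 (1.58, ZT6.0) and GPT (1.33, ZT5.8), 4 of 9 partner genes.

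**Figure D3:**
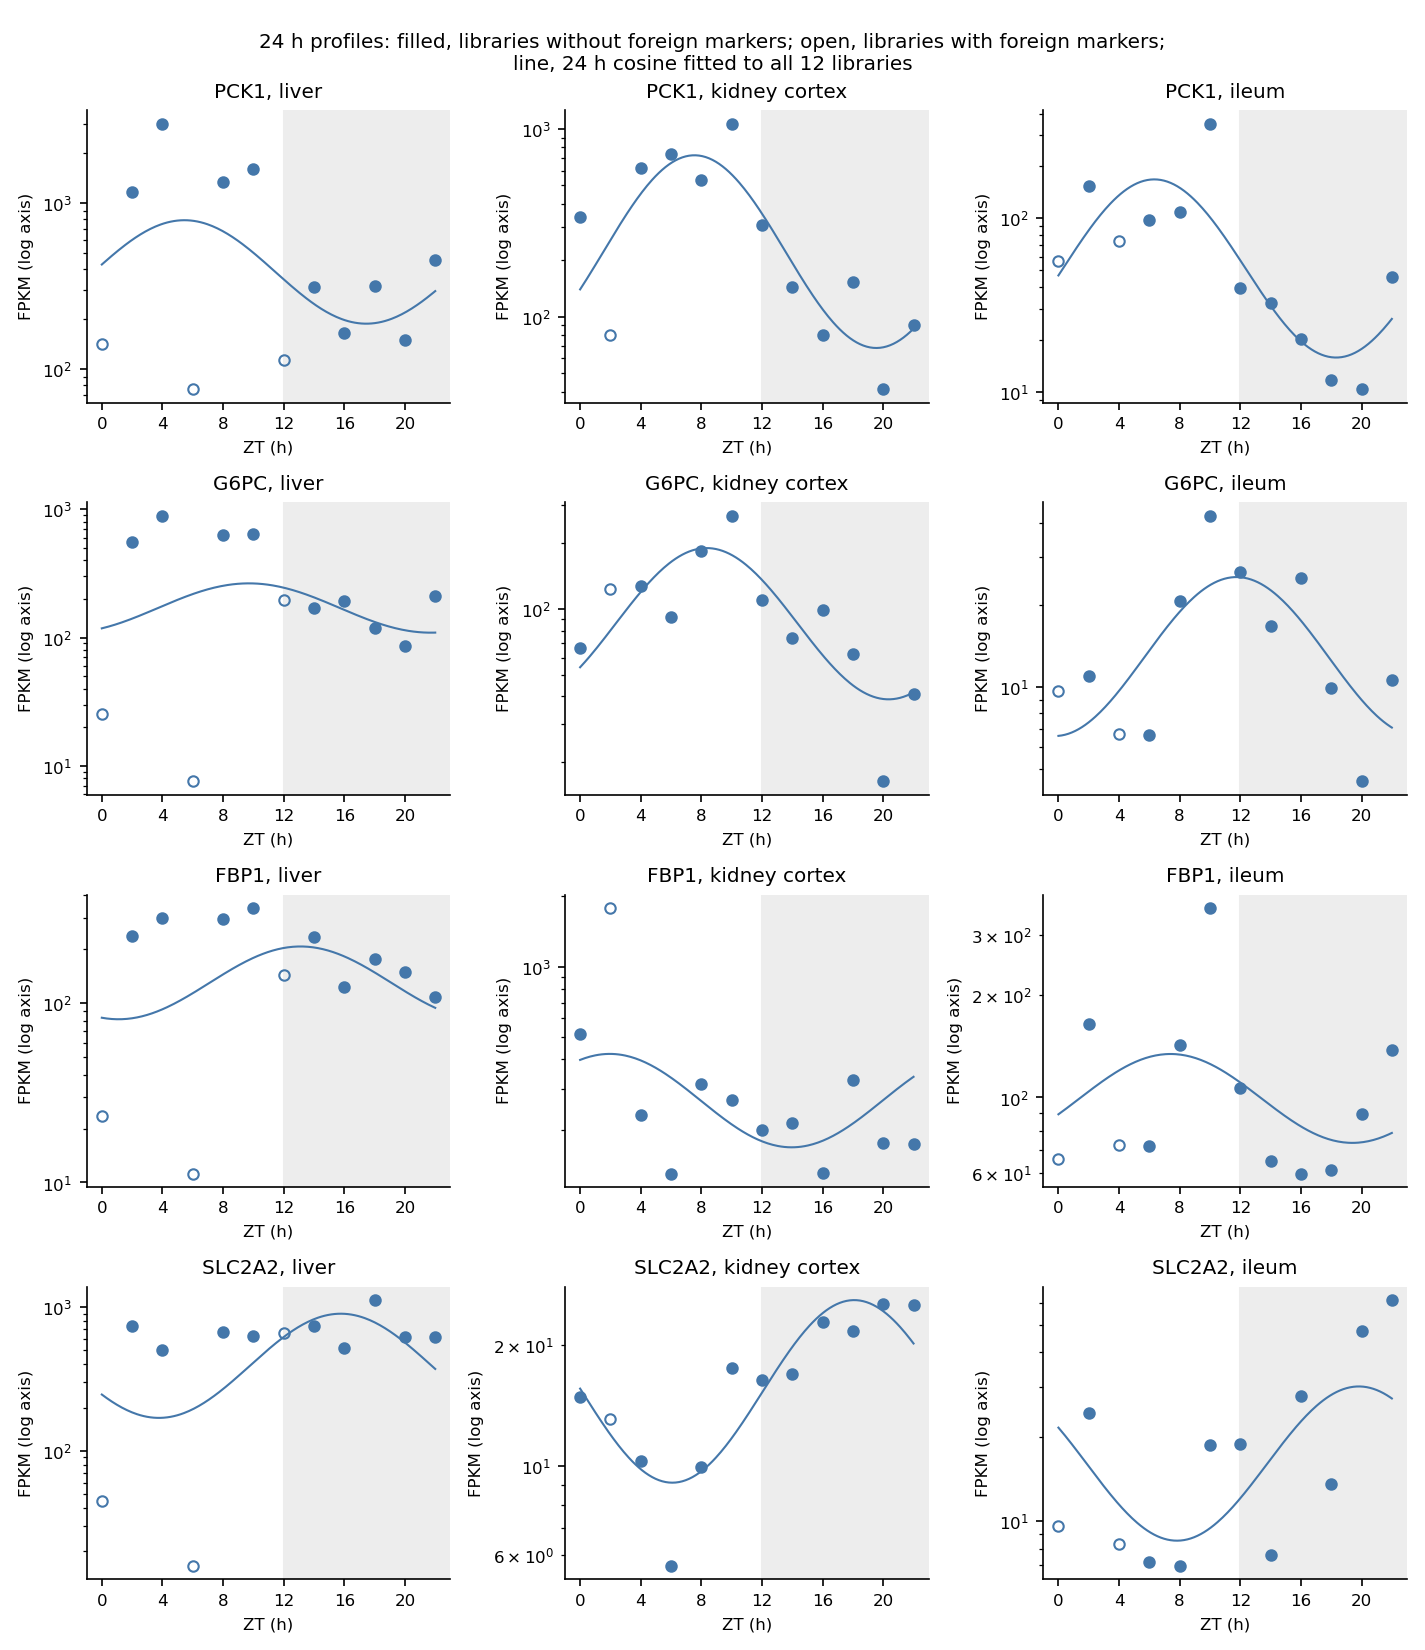
Profiles of members in liver, kidney cortex and ileum, with FPKM on a log axis against ZT in hours; points are single libraries, open where foreign markers were found, and the line is the 24 h cosine fitted to all 12. PCK1 is high by day in all 3 tissues apart from the open liver points at ZT0 and ZT6 and the kidney cortex point at ZT2 (80.3 FPKM), and SLC2A2 in the kidney cortex is highest at ZT20, at 25.4 FPKM.

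SLC2A4 declined from day to night in the heart and in both muscles. In the heart it was 53.2 to 114 FPKM at the light times, highest at ZT4, and 7.77 to 44.8 at the dark times, with no overlap, as in 17.7% of genes there in this direction. In abdominal muscle it was 143 to 272 FPKM by day and 64.4 to 126 by night, also with no overlap, as in 4.14% of genes. In gastrocnemius muscle it was 198 to 257 FPKM from ZT2 to ZT12 and 35.5 to 158 at the other times.

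The fitted amplitude of SLC2A4 was 1.23 in the heart (SE 0.29, peak at ZT5.7, 5.51-fold, adjusted p = 0.0215), 1 of 3 members called where 42.4% of all genes were. It was 0.77 in abdominal muscle (SE 0.15, ZT4.6, 2.89-fold, adjusted p = 0.0348), again 1 of 3 where 6.68% were, and 0.80 in gastrocnemius muscle (SE 0.21, ZT8.1, 3.05-fold, adjusted p = 0.0437). There FBP1 was called as well (1.45, SE 0.36, ZT10.7, 7.42-fold, adjusted p = 0.0392), so 2 of 3 where 20.5% were. In the mean of both muscles SLC2A4 (0.70, adjusted p = 0.0377) and FBP1 (0.84, adjusted p = 0.0422) were called, where 18.9% of genes were. Leaving out single times ended the heart call for ZT4 and ZT16 (adjusted p up to 0.0676), and the calls of SLC2A4 in 8 of 12 fits in abdominal muscle and 9 of 12 in gastrocnemius muscle (adjusted p up to 0.0896 and 0.0909); FBP1 lost its call in 9 of 12 (up to 0.122).

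These profiles ran closely with the library axis. Across the 12 libraries SLC2A4 had a Pearson r with the axis score of 0.996 in the heart, 0.934 in gastrocnemius and 0.789 in abdominal muscle, given as a description of libraries that also share their time course. With the axis as a covariate the heart amplitude was 0.14 with a fitted peak at ZT17.8 (adjusted p = 0.693), that of gastrocnemius 0.26 (adjusted p = 0.627) and that of abdominal muscle 0.49 (adjusted p = 0.192). Cardiomyocyte markers in the heart moved alike, from 8643 to 14969 FPKM by day to 1185 to 7395 by night, and skeletal muscle markers in the gastrocnemius were 20805 to 49829 FPKM at ZT0, ZT18 and ZT22 and 96168 to 218327 at the other times. Their part in the SLC2A4 profiles was not tested.

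SLC2A1 in the heart ran from 0.526 FPKM at ZT22 to 12.8 at ZT4 and had an amplitude of 1.01 (SE 0.32, ZT5.5, adjusted p = 0.0545), and FBP1 there had 0.56 (adjusted p = 0.0619). The heart minus gastrocnemius difference had a 24 h rhythm for SLC2A1 (amplitude 1.06, SE 0.27, adjusted p = 0.0244) and SLC2A4 (0.75, SE 0.21, adjusted p = 0.0409), 2 of 3 members where 38.1% of all genes were called. Genes of GLUT4 traffic and trapping were called in 8 of 12 in the heart, with a median amplitude of 0.52 beside 0.44 over all genes, led by the insulin receptor INSR (0.73, ZT4.8), its kinase AKT2 (1.71, ZT5.3), RAB10 (0.38, ZT18.2) and STX4, a fusion protein for GLUT4 vesicles (0.88, ZT5.2). In gastrocnemius muscle 5 of 12 were, led by IRS1 (1.37, ZT12.6), LNPEP (0.46, ZT18.4), the hexokinase HK2 (1.14, ZT2.4) and TXNIP (0.75, ZT10.5), and in abdominal muscle 0 of 12.

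**Figure D4:**
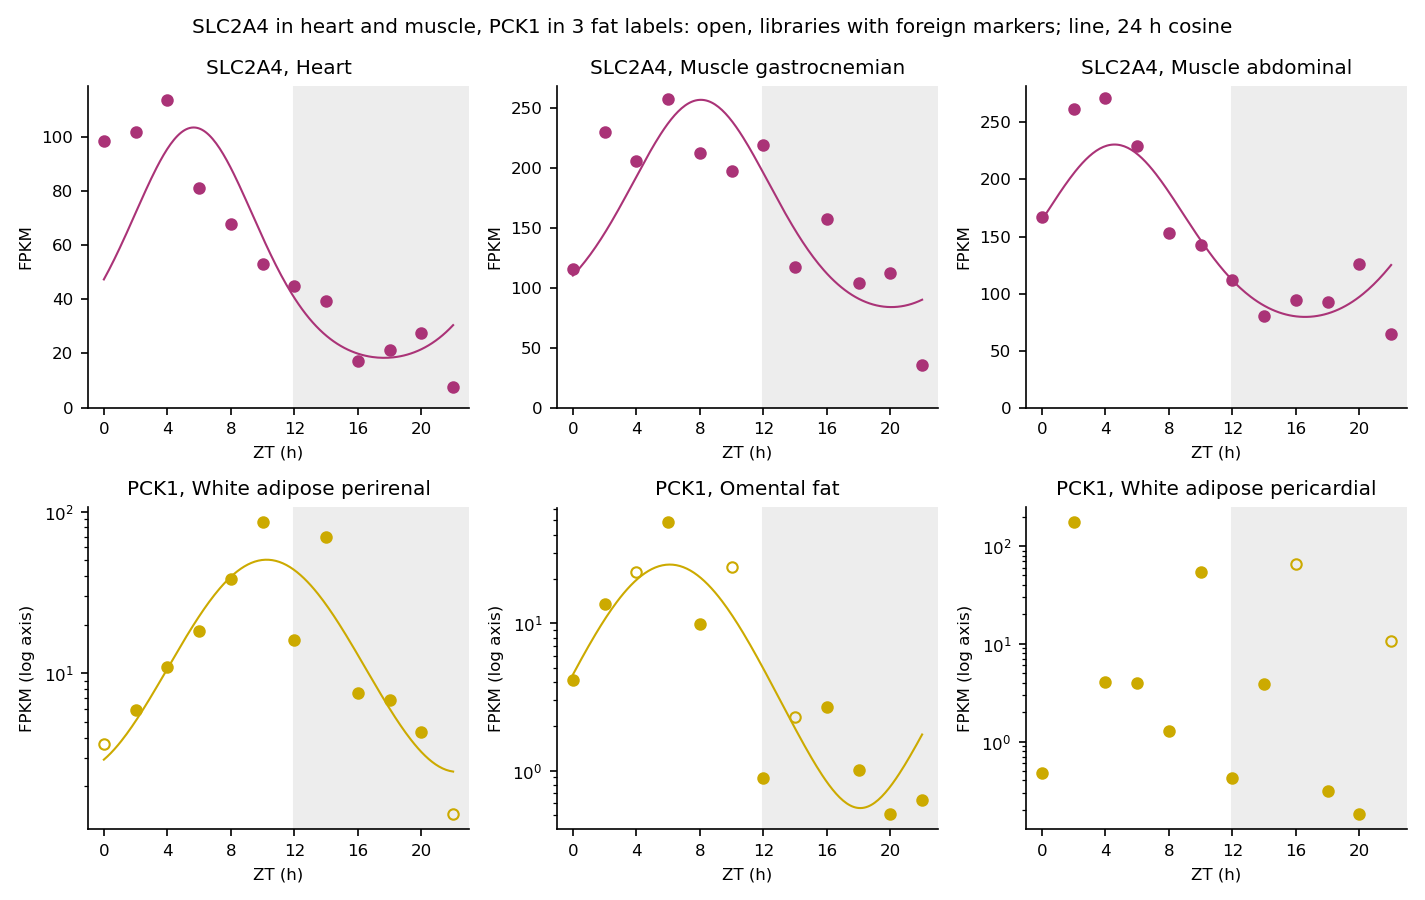
SLC2A4 in heart and muscles (top, FPKM from 0) and PCK1 in perirenal, omental and pericardial fat (bottom, FPKM on a log axis) against ZT in hours; points are libraries, open where foreign markers were found, and lines are 24 h cosines. SLC2A4 in the heart falls from 114 FPKM at ZT4 to 7.77 at ZT22, and pericardial PCK1 is high at ZT2, ZT10, ZT16 and ZT22 only.

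PCK1 was not called rhythmic in any of the 5 white adipose labels, and its fitted peak lay between ZT9.5 and ZT11.7 in 4 of them. Perirenal PCK1 ran from 1.34 FPKM at ZT22 to 86.0 at ZT10, with a median of 9.23. The libraries of ZT0 and ZT22 held pancreatic acinar markers (5 of 6 measured), with sums of 177 and 2018 FPKM against 0.707 to 5.80 in the other 10. Its amplitude was 2.05 (SE 0.29, peak at ZT10.3, 17.2-fold, adjusted p = 0.0757), where 0.017% of all genes were called, and it passed without ZT12 (adjusted p = 0.0287). Without ZT0 and ZT22 the amplitude was 1.92 (SE 0.38, 14.3-fold, adjusted p = 0.306). This profile had an r with the library axis of 0.152, and with the axis as a covariate the amplitude was 2.07 (adjusted p = 0.235).

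The label white adipose tissue gave PCK1 an amplitude of 1.59 (ZT9.5, adjusted p = 0.137; 0.0433% of genes called), mesenteric fat 1.51 (ZT9.5, adjusted p = 0.629; 0.0153%) and subcutaneous fat 0.61 (adjusted p = 0.728; 0.0565%). In the mean of the 5 labels PCK1 was 3.47 FPKM at ZT22 to 68.3 at ZT10, with an amplitude of 1.21 (SE 0.23, ZT9.6, 5.34-fold, adjusted p = 0.075) where 0.155% of genes were called, and it passed without ZT18 or without ZT22 (adjusted p down to 0.0284). SLC2A4 was not called in any white adipose label, with amplitudes from 0.27 in perirenal to 0.80 in the label white adipose tissue (adjusted p = 0.137).

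Pericardial fat did not form 1 tissue. PCK1 was 176, 54.7, 65.6 and 10.6 FPKM and SLC2A4 121, 42.0, 91.0 and 69.7 FPKM at ZT2, ZT10, ZT16 and ZT22, against 0.179 to 4.05 and 0.147 to 6.22 at the other 8 times. Adipocyte markers summed to 2449 to 4731 FPKM in the former 4 libraries and 13.6 to 310 in the others, and leukocyte markers to 19.7 to 96.8 and 549 to 840. No gene of pericardial fat was called rhythmic (0% of genes; PCK1 amplitude 0.69, adjusted p = 0.985, limma).

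Omental fat carried the steepest member profile. PCK1 was 4.12 to 48.7 FPKM by day and 0.504 to 2.69 by night, FBP1 1.497 to 5.90 and 0.281 to 1.09, and neither overlapped, as in 3.27% of genes. PCK1 had an amplitude of 2.30 (SE 0.38, ZT6.1, 24.2-fold, adjusted p = 0.0162), FBP1 of 1.37 (SE 0.20, ZT5.7, 6.69-fold, adjusted p = 0.0162) and SLC2A1 of 0.77 (SE 0.18, ZT12.4, 2.90-fold, adjusted p = 0.0226), 3 of 4 members where 37.7% of all genes were called.

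The make-up of the omental libraries changed with time as well. Adipocyte markers summed to 932 to 4130 FPKM by day and 170 to 500 by night, smooth muscle markers (5 of 6 measured) to 37.4 to 120 FPKM at ZT0 to ZT6 and 2547 to 19915 from ZT8 on, and gastric mucosa markers (4 of 6) to 0.209 to 3.37 and 53.6 to 36569. Their part in the omental profiles was not tested. Without the libraries holding foreign markers none of the 3 was called (PCK1 2.18, FBP1 1.23, SLC2A1 0.84, adjusted p = 0.147, 0.147 and 0.148), and without ZT4 or ZT14 SLC2A1 was not (adjusted p up to 0.0531). PCK2 and PC were called with amplitudes of 2.41 and 2.61 and peaks at ZT5.6 and ZT5.2, among 7 of 10 partner genes.

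In all, 13 of 53 pairs of member and tissue were called, in 6 of 12 tissues, and 11 of the 13 peaked before ZT12. Among all genes, the share called per tissue ran from 0% in pericardial fat to 42.4% in the heart. Of all genes called, 67% peaked there in the heart, 64.5% in the ileum, 72.5% in the kidney cortex, 71.9% in abdominal muscle, 64.7% in gastrocnemius muscle and 55.5% in omental fat, so most genes called in these tissues peaked before ZT12. At an unadjusted p under 0.05 (limma) there were 23 pairs. This count is given without the share of all genes at that limit, so it is not a result about the members. With the library axis as a covariate 0 of the 13 were called and 9 kept an unadjusted p under 0.05 (limma), with amplitudes at a median of 0.744 of their former size (0.113 to 1.09). PCK1 and SLC2A2 in the kidney cortex and G6PC in the ileum were the 3 with an amplitude at or above their former one, and SLC2A4 in the heart had the lowest share.

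**Figure D5:**
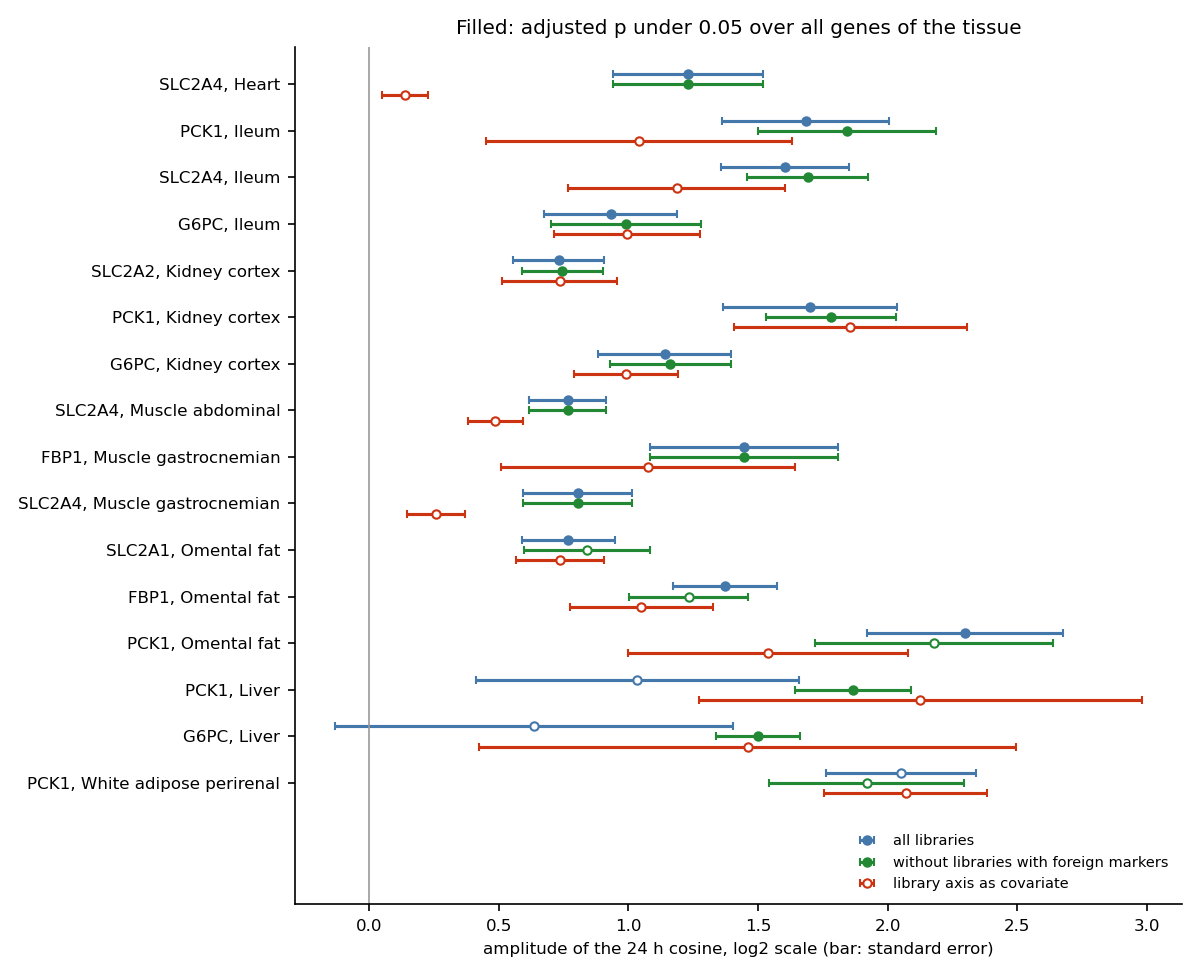
Amplitudes of the 24 h cosine on the log2 scale with standard errors, for pairs of gene and tissue, from the fit to all libraries, the fit without libraries holding foreign markers and the fit with the library axis as a covariate; filled points have an adjusted p under 0.05. Liver PCK1 moves from 1.03 to 1.87 without the libraries holding foreign markers, and heart SLC2A4 from 1.23 to 0.14 with the axis.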

How the data were processed

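The authors deposited FPKM per gene and library, made from stranded polyA libraries. STAR, featureCounts and DESeq2 appear in the submitters' processing notes; not given in the sources used here are their versions and roles, the genome build and whether counting used strand. Per the values, each deposited FPKM above 0 is a whole number of reads (100% within 0.01) times a step of its gene and of its library, and the reads so recovered served only for depth. Members and lists were chosen with earlier results of these data known.

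Values were taken as log2(FPKM + 0.5), so fold changes of low genes are understated. Genes with a mean of at least 1 FPKM were tested in R 4.3.3 with limma 3.58.1, using its variance trend, with Benjamini-Hochberg adjustment at 0.05 over all genes of the comparison: 2-group differences in level, and a cosine and a sine of 24 h per tissue (amplitude is that of the curve, fold its peak over its trough). The test was also run on simulated data with noise drawn independently for each gene. That check does not cover variation shared among genes, such as the library axis. Permutation tests (100000 resamples, SciPy 1.17.1) compared the highest with the next tissue. Foreign markers were called in a library where the median over such a list reached 10 FPKM and lay 20 times above the usual value of that tissue, and own markers were called missing where they lay 20 times below it; what most libraries of a tissue share goes unseen. Steps of the order of tissues are beyond the spread when the difference of log2 means exceeds the larger SD.

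All members were named in every comparison; of each pathway list (13 of 14 partner genes, 10 of 11 other transporters and 13 of 14 genes of GLUT4 traffic and glucose trapping have a row) at most 4 called genes with the smallest p; and for each member the 3 genes most like it. Some genes that this rule names are not reported here. Alternatives were pseudocounts of 0.1 and 1, no filter, a filter of 5 FPKM, libraries rescaled to a common sum of FPKM, no moderation, libraries left out, the animal as a block and the library axis as a covariate. The pairing by animal comes from the labels; deviations of same-time libraries had a mean correlation of 0.162 between liver and kidney cortex, 0.206 between kidney cortex and medulla, 0.0143 between duodenum and ileum and 0.235 between heart and gastrocnemius muscle.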

Additional observations from a re-analysis of the deposited data

Results flagged for a closer look

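The rhythm of the heart minus gastrocnemius difference was tested per labelled animal, and it passed for SLC2A1, with an amplitude of 1.06 on the log2 scale (SE 0.27, adjusted p = 0.0244, limma), and for SLC2A4, with 0.75 (SE 0.21, adjusted p = 0.0409). SLC2A1 kept its call in 11 of 12 fits that left out a time and lost it without ZT18 (adjusted p = 0.0664), and SLC2A4 kept it in 4 of 12 (adjusted p up to 0.123). Tissues have 11 or 12 libraries each, so single libraries were not tested for outlying values.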

How the results depend on the processing

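The 13 of 53 pairs called rhythmic became 6 of 84 with no filter and 8 of 52 with rescaled libraries. With the filter of 5 FPKM 8 of 40 were called, and only 11 of the 13 pairs were fitted. Of 53 pairs, 10 were called at a pseudocount of 0.1, 14 at 1, 5 without moderation and 0 with the library axis as a covariate. Without libraries holding foreign markers 13 were called, 10 of them from the main 13. Fits that left out single times gave 4 to 12. In the means of white fat and of muscle, 2 calls became 0 with no filter, without moderation and with the axis, and 0 to 3 with times left out. The 2 rhythm differences between heart and gastrocnemius became 1 at a pseudocount of 0.1, with no filter, with the filter of 5 FPKM and without libraries that matched another animal or carry the mark approx, 0 without moderation or with the axis, and 0 to 3 with times left out. Duodenum against ileum went from 0 to 1 with no filter, with rescaled libraries and without libraries holding foreign markers, and from 0 to 1 with times left out; liver against kidney cortex gave 3 to 5. With the axis the SLC2A4 curve turned to another time of day, with amplitudes of 0.14 in the heart, 0.26 in gastrocnemius and 0.25 for their difference. In these cases the cause was not tested. With the animal as a block, heart against gastrocnemius had 3 members that differed, SLC2A1 being added (0.64, adjusted p = 0.0443); the block changed no other call. Without libraries that matched another animal, duodenum and ileum could not be compared, since all 12 duodenum libraries go, and SLC5A1 in the ileum then stood above the next tissue, the prostate (log2 difference 1.94). Over single genes, 2161 alternative values kept their side of the threshold, 150 fell below it and 32 rose above it. The 3 that turned are the SLC2A4 curves named above. Direction was compared only for results called in the main fit, so uncalled differences that changed sign are among the 2161. Of the alternative counts of members or pairs, 187 were equal or close to the main count and 43 moved further. A level of a single time rests on 1 library, and depth as low as 32790 reads limits the low genes.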
